A study of Mus musculus with 32 samples.

Results

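The comparison set 5 whole brains of BALB/c mice taken 21 days after implantation of BAL17 cells against 5 whole brains of BALB/c mice that had received PBS and were taken at day 28. These 10 arrays were chosen by the sample titles, from 32 arrays in the series. BAL17 is a murine line of malignant B cells that came from a BALB/c mouse, and 500000 cells were placed in the brain as a model of lymphoma that grows primarily in the central nervous system. The hosts were described as wild type, so cells and hosts shared their strain background. All implanted brains carried the same single line, and the extraction entry reads frozen tissue section, with no word on which level of the brain a section covered. Day and implanted cells differed together, since the only PBS brains were those of day 28. The difference between implanted and PBS brains at day 21 therefore cannot be told apart from any effect of the extra week. A further 5 BAL17 brains of day 28 and 6 arrays of cultured BAL17 cells were used where stated, to place a result in time or against the line itself. Each value is the log2 of an intensity made with RMA, and each difference is BAL17 day 21 minus PBS, given with the standard error (SE) of limma.

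Of 35556 probe sets on the array, 21789 carried 1 gene symbol, and these stood for 19938 genes. A gene was tested where its probe set exceeded the median of the named probe sets on at least 5 of the 10 arrays, which 10033 genes did. Calls were made below an adjusted p of 0.05, with Benjamini-Hochberg adjustment over all 10033 genes. The medians of the named probe sets lay between 6.69 and 6.76 on the 10 arrays. Correlations between arrays of a group ran from 0.9571 to 0.9888 for the BAL17 day 21 brains and from 0.9665 to 0.9888 for the PBS brains. RMA gives no detection call, so a value well below 6.69 is dim and not a measured absence, and differences of genes that were dim in PBS brains have no reliable order.

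A lymphoma of B cells brings the transcripts of its own lineage into the brain, chiefly the B cell receptor with its signalling chain and the transcription factors that fix B cell identity. Fast division adds the genes of DNA synthesis, of the spindle and of ribosome manufacture, many of which are targets of the transcription factor MYC. The brain holds few lymphocytes and almost no dividing cells. It answers immune cells through microglia, its resident phagocytes, and through astrocytes, and antigen is shown to T cells on MHC molecules whose genes respond to interferons.

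Brains with BAL17 cells at day 21 had strongly raised genes of dividing B cells and modestly lowered genes of neurons, myelin and astrocytes. Of the 10033 genes, 4561 were called (45.5%), 1148 higher (11.4%) and 3413 lower (34%). Over all genes tested, called or not, every implanted brain lay above every PBS brain for 839 (8.36%) and below every PBS brain for 2071 (20.6%). Rises reached at least 2-fold for 206 genes (2.05%), against 40 falls of that size (0.399%). The median difference was -0.14 over all genes tested, 0.50 over the higher genes and -0.41 over the lower genes. Genes that were below the array median in every PBS brain passed the filter only through the implanted brains, and all 162 of them were higher.

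**Figure D1:**
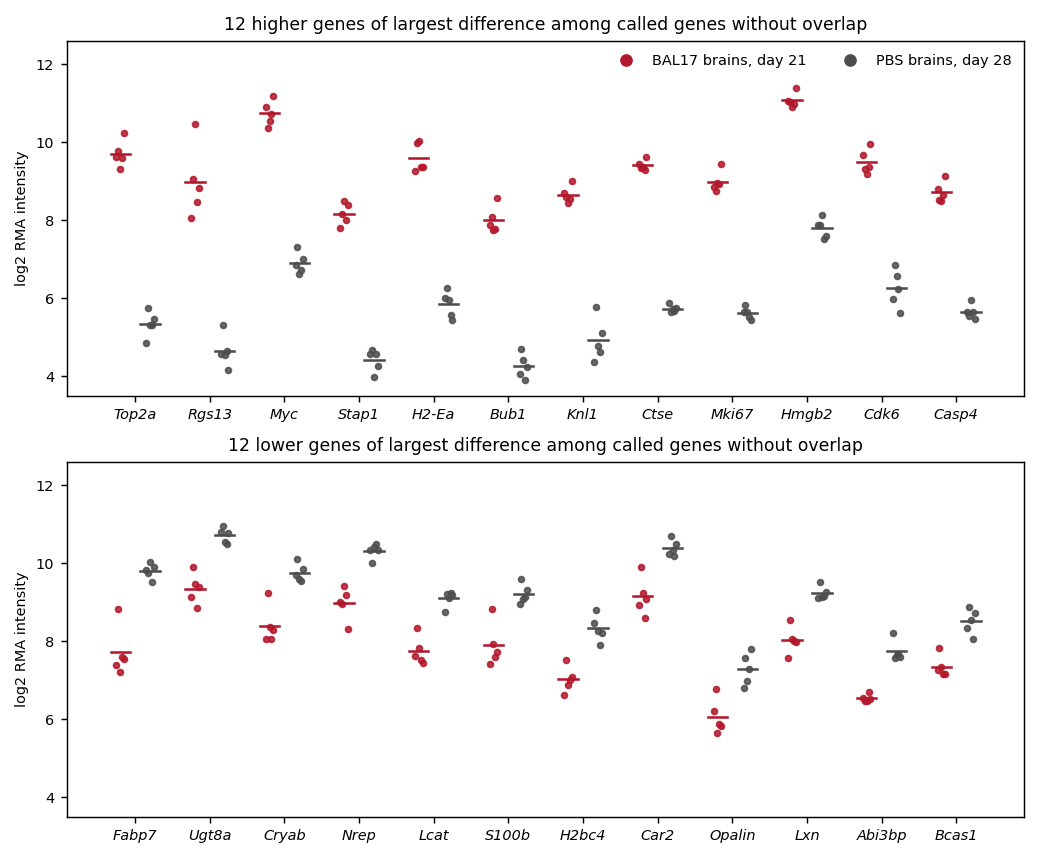
Log2 RMA intensity of the 12 higher (top) and 12 lower (bottom) genes of largest difference among called genes with no overlap between groups, with 1 point per brain and a bar at the group mean (5 BAL17 day 21 brains at the left of each gene, 5 PBS brains of day 28 at the right). The higher genes differ by 3.06 to 4.37, most of them from PBS values below the array median, and the lower genes by -2.09 (Fabp7) to -1.16 (Bcas1).

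Top2a, which encodes the topoisomerase of dividing cells, measured 9.61, 9.76, 9.32, 9.60 and 10.23 in the BAL17 day 21 brains, against 4.85, 5.74, 5.31, 5.30 and 5.47 in the PBS brains. The groups stood over 3 log2 units apart at their nearest brains, and replicate 5 was the highest implanted brain. The difference was 4.37 ± 0.17 (limma, adjusted p = 4.69e-10), and no fold is given because the gene was dim in every PBS brain. Rgs13, a regulator of G protein signalling found in germinal centre B cells, measured 8.06, 9.06, 10.46, 8.46 and 8.82 in the BAL17 day 21 brains, against 4.57, 5.32, 4.54, 4.65 and 4.16 in the PBS brains. Its implanted brains spread over more than 2 log2 units with replicate 3 at the top, and all lay above the PBS brains (4.32 ± 0.34). Myc, the proto-oncogene of growth, measured 10.91, 10.35, 10.53, 10.71 and 11.19 in the BAL17 day 21 brains, against 6.85, 7.30, 6.62, 6.71 and 7.0 in the PBS brains. It was above the array median in 3 of 5 PBS brains, and it rose by 3.84 ± 0.16, or 14.3-fold. Stap1, an adaptor of B cell receptor signalling (3.76 ± 0.15), the MHC class II gene H2-Ea (3.75 ± 0.18), the spindle checkpoint kinase gene Bub1 (3.74 ± 0.17) and the kinetochore gene Knl1 (3.73 ± 0.21) were higher too. The protease gene Ctse (3.68 ± 0.08), the proliferation marker Mki67 (3.37 ± 0.12), the chromatin protein gene Hmgb2 (3.28 ± 0.12), the G1 kinase gene Cdk6 (3.25 ± 0.20) and the inflammatory caspase gene Casp4 (3.06 ± 0.13) made up the 12 higher genes of largest difference. Of these 12, 9 were below the array median in every PBS brain, so their sizes do not rank them.

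The falls were smaller and were led by genes of glia, and in RNA of whole brains fewer cells of a type and less RNA per cell cannot be told apart. Fabp7, a fatty acid binding protein of radial glia and astrocytes, measured 7.38, 8.84, 7.20, 7.60 and 7.55 in the BAL17 day 21 brains, against 9.83, 9.75, 10.03, 9.51 and 9.91 in the PBS brains. Replicate 2 lay well above the other implanted brains, still below every PBS brain, and the difference was -2.09 ± 0.24, a 4.27-fold fall (limma, adjusted p = 1.39e-05). Ugt8a, which makes the galactolipids of myelin (-1.36 ± 0.16), the small heat shock protein gene Cryab (-1.36 ± 0.19), the regeneration-linked gene Nrep (-1.35 ± 0.16), the cholesterol esterifying enzyme gene Lcat (-1.35 ± 0.15) and the astrocyte calcium binding protein gene S100b (-1.32 ± 0.21) came next. The histone gene H2bc4 (-1.31 ± 0.17), the carbonic anhydrase gene Car2 (-1.24 ± 0.19), the oligodendrocyte membrane gene Opalin (-1.22 ± 0.21), the carboxypeptidase inhibitor gene Lxn (-1.21 ± 0.14), the matrix gene Abi3bp (-1.20 ± 0.12) and the oligodendrocyte gene Bcas1 (-1.16 ± 0.16) closed the 12. Replicate 2 was the highest implanted brain for 10 of these 12 genes. H2bc4 belongs to a family of near-identical histone genes, so its value is uncertain.

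**Figure D2:**
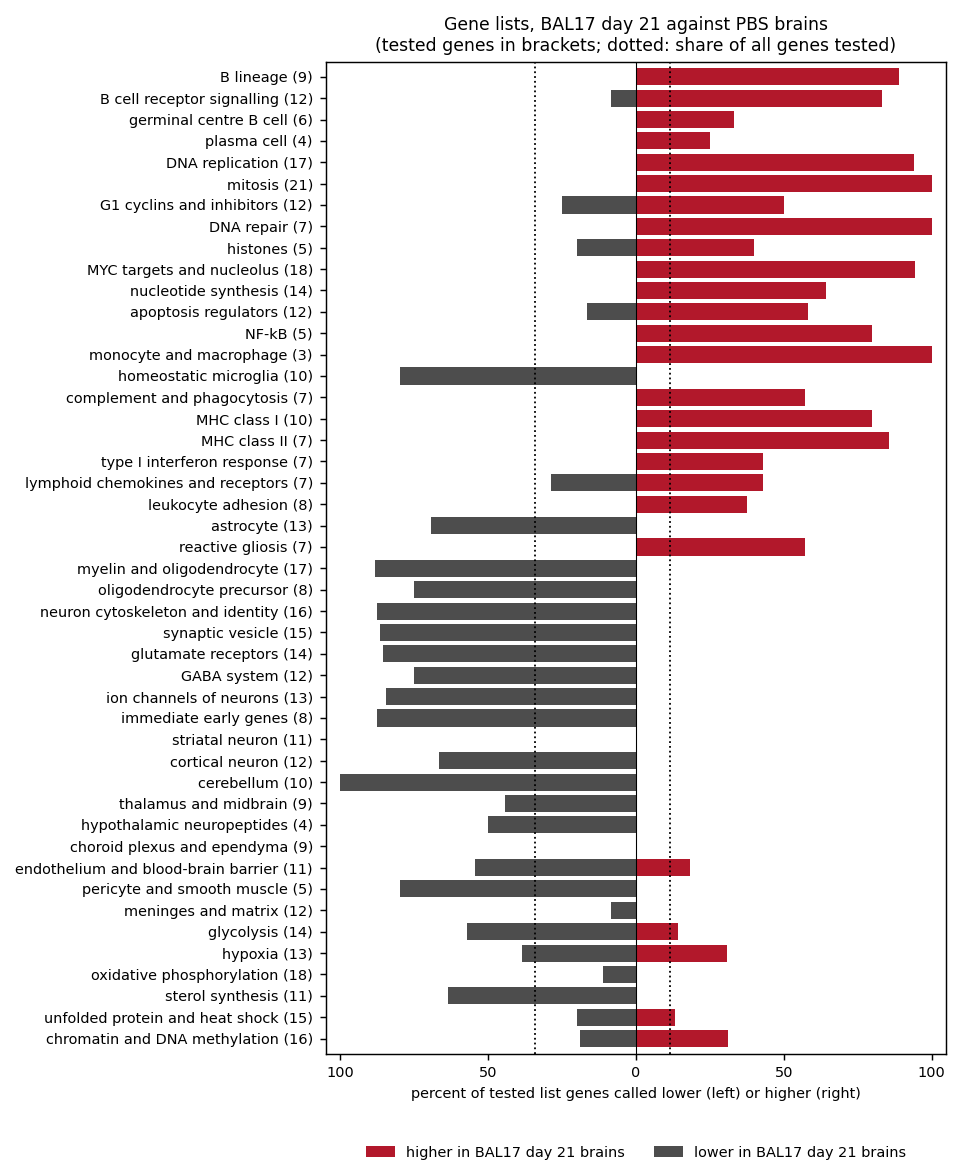
Share of each gene list called lower (bars to the left) or higher (bars to the right) in BAL17 day 21 brains against PBS brains, as a percentage of the list's genes that were tested, with that number in brackets; lists with fewer than 3 tested genes are left out. The dotted lines mark the shares over all genes tested, 11.4% higher and 34% lower, and every tested mitosis gene was higher while no striatal or choroid plexus gene was called. Of the 21 tested mitosis genes, 17 were below the array median in every PBS brain and so could pass the filter only through the implanted brains.

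The lists of genes named here are those of cell types and pathways. The filter favours genes that are high in the implanted brains, so for most lists that rose counts without the filter are given as well. Counts of tested list genes are to be set against 11.4% higher and 34% lower over all genes tested. Without the filter 9.52% of 19938 genes were higher and 17.1% lower. Of 19 B lineage genes on the array, 15 were then higher and none lower, with a median difference of 1.16. With the filter 9 were tested and 8 were higher, where the share over all genes tested was 11.4%, but 5 of the 9 had entered only through the implanted brains. Of the other 4, 3 were higher. Cd79b, a signalling chain of the B cell receptor, measured 8.71, 9.23, 8.82, 8.66 and 9.01 in the BAL17 day 21 brains, against 6.21, 5.59, 6.0, 6.38 and 6.03 in the PBS brains. The lowest implanted brain was more than 2 log2 units above the highest PBS brain (2.84 ± 0.14). Pou2af1, a coactivator of immunoglobulin genes (2.31 ± 0.15), and Cd37, a tetraspanin of B cells (1.90 ± 0.14), rose without overlap. Cd79a, the partner chain of Cd79b, rose by 1.75 ± 0.29 and was uneven among PBS brains, which ran from 4.43 to 6.57.

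Of 18 genes of B cell receptor signalling on the array, 14 were higher and 1 was lower without the filter, with a median of 0.75. With it 10 of 12 were higher and 1 lower, and 6 of the 12 had been dim in every PBS brain. Btk, the kinase downstream of the receptor, measured 7.46, 7.82, 7.54, 7.69 and 8.19 in the BAL17 day 21 brains, against 4.78, 5.13, 4.40, 4.92 and 5.04 in the PBS brains. Every implanted brain exceeded every PBS brain by more than 2 log2 units (2.89 ± 0.15). Blnk, the adaptor that links the receptor to its effectors, rose by 1.51 ± 0.10. Of 14 germinal centre genes on the array 6 were higher without the filter, with a median of 0.34. With it the median was 0.17 and 2 of 6 were higher (33.3%, against 11.4% of all genes tested). These were Rgs13 and the transcription factor gene Elf1 (1.18 ± 0.13). Rgs13 had been dim in every PBS brain, and 1 of the other 5 tested genes was higher. Bcl6, the repressor that defines germinal centre cells, did not pass the test (-0.02 ± 0.18). Of 12 plasma cell genes on the array 5 were higher without the filter. With it 1 of 4 was higher, Edem1, which clears misfolded proteins (0.63 ± 0.09). Replicate 3 of the implanted brains stood apart in both lists, with a germinal centre list mean of 7.51 where the other 4 ran from 6.92 to 7.05, and a plasma cell list mean of 7.06 where they ran from 6.27 to 6.50.

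Genes of cell division moved as a block. Without the filter all 24 mitosis genes on the array were higher, with a median of 1.88, as were 23 of 24 DNA replication genes, with a median of 0.85. With the filter the counts were 21 of 21 and 16 of 17, and among those not dim in every PBS brain they were 4 of 4 and 10 of 11. Mki67 measured 8.85, 8.74, 8.96, 8.92 and 9.43 in the BAL17 day 21 brains, against 5.64, 5.83, 5.64, 5.52 and 5.43 in the PBS brains. Mcm6, a subunit of the replicative helicase, measured 8.84, 8.83, 8.54, 8.56 and 9.20 in the BAL17 day 21 brains, against 5.94, 5.84, 5.92, 5.86 and 5.61 in the PBS brains. Neither gene had an implanted brain within 2 log2 units of a PBS brain, and replicate 5 was the highest for both. Rrm2, the subunit of ribonucleotide reductase that makes deoxynucleotides, rose by 1.96 ± 0.13, and Mcm3, also of the helicase, by 1.76 ± 0.15. Of 17 DNA repair genes on the array 16 were higher without the filter, with a median of 0.68, and 7 of 7 with it, including the checkpoint kinase gene Chek1 (1.54 ± 0.13), the helicase gene Blm (1.02 ± 0.11) and the mismatch repair gene Msh6 (0.74 ± 0.09). Chek1 and Blm were dim in every PBS brain, and the other 5 tested genes were all higher. Of 18 G1 regulators on the array 8 were higher and 2 lower without the filter. With it 6 of 12 were higher (50%, against 11.4% of all genes tested), among them Cdk6 and the repressor gene E2f8 (2.08 ± 0.11). E2f8 had been dim in every PBS brain, and 5 of the other 11 tested genes were higher. Of the 12, 3 were lower (25%, against 34% of all genes tested), among them the cyclin D1 gene Ccnd1 (-0.58 ± 0.09).

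MYC targets and genes of the nucleolus, where ribosomes are assembled, rose for 17 of 18 tested genes, with a median of 0.78, and only 1 of the 18 had been dim in every PBS brain. Without the filter 16 of 20 were higher. Ddx21, a nucleolar RNA helicase, measured 8.76, 8.55, 8.68, 8.60 and 9.06 in the BAL17 day 21 brains, against 7.21, 7.19, 7.10, 7.37 and 7.15 in the PBS brains. Wdr43, a factor of ribosomal RNA processing, measured 10.25, 10.47, 10.23, 10.27 and 10.65 in the BAL17 day 21 brains, against 8.81, 9.15, 9.0, 8.83 and 8.86 in the PBS brains. The groups did not overlap for either gene, and the differences were 1.53 ± 0.10 and 1.45 ± 0.10. Nucleotide and one-carbon synthesis genes rose for 9 of 14 with or without the filter. Among them were those of the mitochondrial enzymes Shmt2 (1.84 ± 0.13) and Mthfd2 (1.72 ± 0.17). Cultured BAL17 cells stood above the array median on all 6 arrays for every tested member of the mitosis, replication and MYC lists.

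Promoters are shown for the 2 genes of smallest adjusted p with an entry in each of the mitosis, DNA replication and MYC lists, since these lists moved together. The sequences are RefSeq's, from build GRCm38.p6, and run from 250 bases before to 50 bases after the gene's start, written 5′ to 3′ on the gene's strand. Where a gene has several starts, the first listed was used. Capitals mark matches, on either strand, to CCAAT (the box bound by NF-Y), TTTGAA (the cell cycle homology region of mitotic genes), TTTCCCGC and TTTGGCGC (forms of the E2F site) and CACGTG (the E-box that MYC binds).
Mki67 (chr7:135716330-135716629, minus strand): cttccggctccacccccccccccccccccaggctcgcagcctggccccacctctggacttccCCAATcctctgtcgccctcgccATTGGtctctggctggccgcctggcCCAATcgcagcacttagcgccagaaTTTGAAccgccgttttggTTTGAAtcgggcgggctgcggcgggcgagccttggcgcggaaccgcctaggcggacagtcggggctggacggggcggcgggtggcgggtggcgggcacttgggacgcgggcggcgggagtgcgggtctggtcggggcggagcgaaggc
Top2a (chr11:99024140-99024439, minus strand): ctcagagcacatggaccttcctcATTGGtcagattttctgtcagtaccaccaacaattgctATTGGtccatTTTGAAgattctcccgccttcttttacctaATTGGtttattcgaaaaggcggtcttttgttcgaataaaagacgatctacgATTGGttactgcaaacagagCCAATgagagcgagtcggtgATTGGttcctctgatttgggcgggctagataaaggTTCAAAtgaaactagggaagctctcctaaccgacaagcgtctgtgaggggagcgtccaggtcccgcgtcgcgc
Mcm6 (chr1:128359656-128359955, minus strand): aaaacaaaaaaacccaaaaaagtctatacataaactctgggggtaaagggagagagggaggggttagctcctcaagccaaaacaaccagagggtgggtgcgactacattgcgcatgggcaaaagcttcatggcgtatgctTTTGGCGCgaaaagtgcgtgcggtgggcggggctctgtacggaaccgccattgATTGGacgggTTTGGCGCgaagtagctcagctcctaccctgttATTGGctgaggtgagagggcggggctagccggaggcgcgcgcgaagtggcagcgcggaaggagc
Rrm2 (chr12:24708004-24708303, plus strand): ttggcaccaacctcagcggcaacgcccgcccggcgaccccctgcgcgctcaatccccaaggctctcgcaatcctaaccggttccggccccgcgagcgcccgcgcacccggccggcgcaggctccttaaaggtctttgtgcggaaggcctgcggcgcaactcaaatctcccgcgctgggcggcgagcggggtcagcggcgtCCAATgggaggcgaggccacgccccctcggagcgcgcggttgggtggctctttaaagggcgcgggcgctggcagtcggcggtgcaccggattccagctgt
Ddx21 (chr10:62602249-62602548, minus strand): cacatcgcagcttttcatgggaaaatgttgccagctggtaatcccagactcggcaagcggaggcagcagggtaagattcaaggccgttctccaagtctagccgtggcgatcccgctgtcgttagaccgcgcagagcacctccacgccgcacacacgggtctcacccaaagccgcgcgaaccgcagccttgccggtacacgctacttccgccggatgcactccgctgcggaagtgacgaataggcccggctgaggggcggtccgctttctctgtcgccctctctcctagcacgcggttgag
Wdr43 (chr17:71615965-71616264, plus strand): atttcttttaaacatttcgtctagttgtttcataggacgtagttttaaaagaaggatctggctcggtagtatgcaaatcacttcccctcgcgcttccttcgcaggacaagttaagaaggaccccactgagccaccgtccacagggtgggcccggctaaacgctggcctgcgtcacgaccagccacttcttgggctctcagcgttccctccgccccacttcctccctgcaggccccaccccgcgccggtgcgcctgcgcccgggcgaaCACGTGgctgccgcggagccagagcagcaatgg

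The mitotic promoters of Mki67 and Top2a held 3 and 6 CCAAT boxes and 2 TTTGAA matches each, Mcm6 held 2 CCAAT boxes and 2 copies of TTTGGCGC, Rrm2 held 1 CCAAT box, and Wdr43 held 1 CACGTG, 17 bases after its start. Ddx21 held none of these letters in this window. Among the mitosis genes with a promoter entry, 15 of 20 (75%) held CCAAT and 14 of 20 (70%) held TTTGAA, where the shares were 37.9% and 18.1% over 27025 promoters of the same length and 37.9% and 11% over the 8056 of genes tested. Among the replication genes, 14 of 21 (66.7%) held CCAAT, 5 (23.8%) held TTTGGCGC and 4 (19%) held TTTCCCGC, where the shares were 37.9%, 0.537% and 1.11% over all promoters and 37.9%, 0.993% and 2.07% over those of genes tested. CACGTG stood in 3 of 14 MYC list promoters (21.4%), against 7.24% of all promoters and 10.1% of those of genes tested. No matches overlapped in the 6 promoters printed, and a match describes letters, not binding.

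Regulators of cell death and of NF-kB were higher more often than lower. Of 12 tested apoptosis regulators, 7 were higher and 2 lower (58.3% and 16.7%, where 11.4% and 34% of all genes tested were). Of the 9 not dim in every PBS brain 4 were higher. Without the filter 7 of 13 were higher and 1 lower. Bcl2, which holds back cell death, measured 9.84, 9.72, 9.54, 9.83 and 10.18 in the BAL17 day 21 brains, against 7.91, 7.95, 7.84, 7.54 and 7.93 in the PBS brains, without overlap (1.99 ± 0.12). Casp8, the caspase of death receptors (1.41 ± 0.12), and Bcl2l11, whose product BIM promotes death (1.29 ± 0.13), rose as well, so both arms of the pathway had members among the higher genes. Of 14 NF-kB genes on the array 9 were higher without the filter, and 4 of 5 with it, including the inhibitor of apoptosis gene Birc3 (1.54 ± 0.16), the subunit gene Rel (0.80 ± 0.13) and the receptor gene Cd40 (0.51 ± 0.08). Birc3 and Cd40 were dim in every PBS brain, and of the other 3 tested genes 2 were higher. Of 16 chromatin and DNA methylation genes, 5 were higher and 3 lower (31.2% and 18.8%, where 11.4% and 34% of all genes tested were). Among them were the polycomb methyltransferase gene Ezh2 (0.61 ± 0.10) and the demethylase gene Tet1 (-0.56 ± 0.09).

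The cultured line shows how bright each changed gene was in the cells that had been implanted. Whether line and brain arrays were normalized together is not given in the sources used here, so each gene was only placed above or below the median of its own array. Of the 1148 higher genes, 1108 (96.5%) were above the median on all 6 cultured BAL17 arrays, where 74.9% of the genes tested were. Of the 3413 lower genes, 48.7% were above it and 35.7% below it on all 6. Taken from the side of the line, genes below the median in the cultured cells were lower in brains for 76.7% of 1588 and higher for 1.45%, with a median of -0.45. Genes above it were lower for 22.1% of 7514 and higher for 14.7%, with a median of -0.06. Of the 40 falls of at least 2-fold, 32 were genes below the median in the line and 1 was above it.

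**Figure D3:**
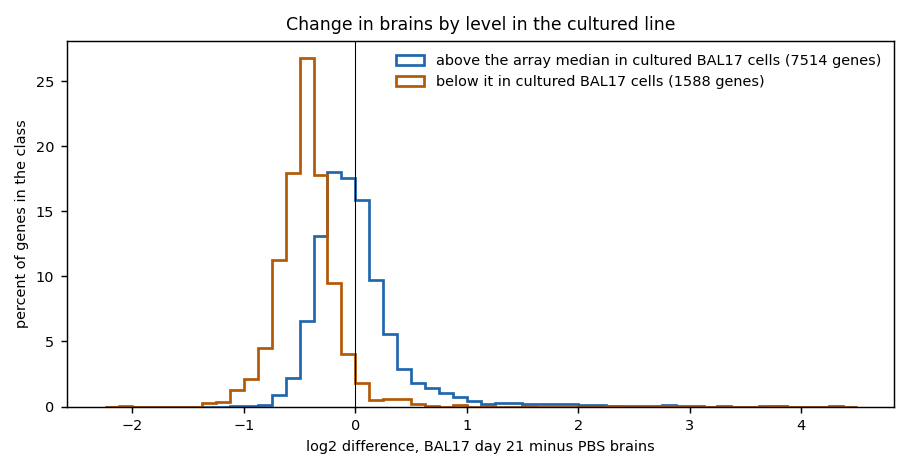
Distribution of the log2 difference between BAL17 day 21 and PBS brains, as a percentage of the genes in each class, for the 7514 tested genes above the array median and the 1588 below it on all 6 cultured BAL17 arrays. The dim genes centre at -0.45 and the bright ones at -0.06, and the long right tail belongs almost wholly to the bright class.

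Only 23 genes rose in the brains while lying below the median on every cultured BAL17 array. They were H2-Ea, H2-Aa, Cd74, Lyz2, Etnppl, Ifitm3, Rtp4, Pdk4, Agt, C1qc, Scrg1, Igfbp3, Serping1, Fam107a, Itih2, Mt2, Ccl17, Slc24a4, Pdgfc, Serpina3n, C1qb, C3ar1 and A2m. The number depends on the cut-off, since 180 of the higher genes lay below the 75th percentile in the line. For 8 of the 23 the groups of brains did not overlap.

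**Figure D4:**
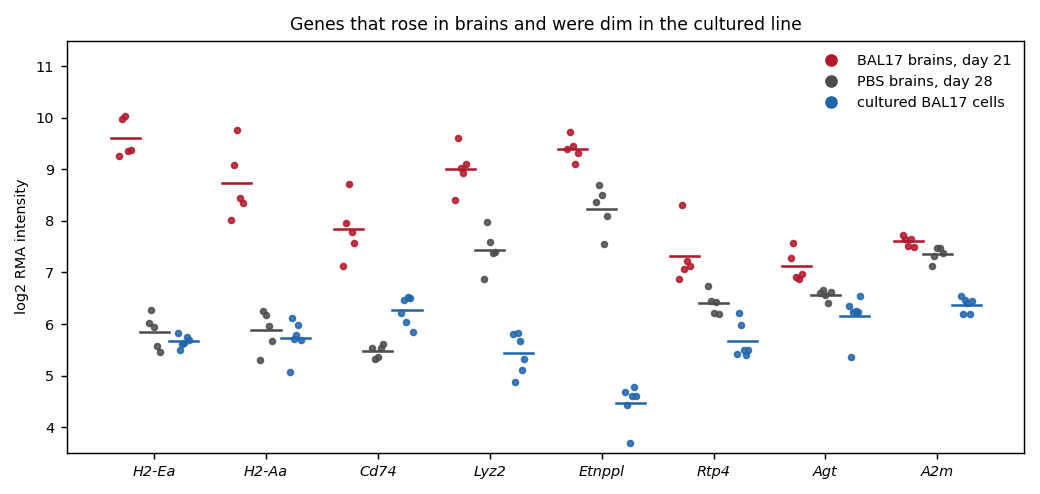
Log2 RMA intensity of the 8 genes that were higher in BAL17 day 21 brains without overlap and below the array median on all 6 cultured BAL17 arrays, with 1 point per array and a bar at the mean (5 BAL17 day 21 brains, 5 PBS brains and 6 cultured BAL17 arrays, left to right). H2-Ea, H2-Aa and Cd74 were dim in PBS brains and in the line, and Etnppl was bright in PBS brains.

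H2-Ea, H2-Aa and Cd74 belong to MHC class II, which loads antigen for helper T cells. H2-Aa, an alpha chain, measured 8.02, 9.08, 9.77, 8.44 and 8.35 in the BAL17 day 21 brains, against 5.31, 6.26, 6.17, 5.97 and 5.67 in the PBS brains. Cd74, the invariant chain that escorts class II molecules, measured 7.13, 7.97, 8.71, 7.79 and 7.58 in the BAL17 day 21 brains, against 5.54, 5.33, 5.36, 5.54 and 5.62 in the PBS brains. In both genes replicate 3 was the highest implanted brain and replicate 1 the lowest, and all 5 lay above the PBS brains (2.86 ± 0.27 and 2.36 ± 0.21). The means on the cultured BAL17 arrays were 5.67 ± 0.11 for H2-Ea, 5.73 ± 0.36 for H2-Aa and 6.26 ± 0.28 for Cd74 (SD, n = 6). Of 10 class II genes on the array 8 were higher without the filter, with a median of 0.95, and 6 of 7 with it, where 3 of the 7 had been dim in every PBS brain. H2 genes are similar in sequence, and shared probes leave their values uncertain. Ms4a1, which encodes the B cell antigen CD20, did not pass the filter and showed a like pattern, with 6.05, 7.36, 8.81, 7.21 and 6.84 in the BAL17 day 21 brains, against 4.83, 4.91, 4.86, 4.96 and 5.19 in the PBS brains (2.31 ± 0.33 without the filter, adjusted p = 0.000128) and 5.31 ± 0.37 in the line. Cxcl13, the chemokine that draws B cells into follicles, was also outside the filter and measured 6.46, 7.21, 8.53, 7.66 and 6.52 in the BAL17 day 21 brains, against 5.87, 5.80, 6.02, 5.94 and 5.62 in the PBS brains, again with replicate 3 highest (1.43 ± 0.29 without the filter, adjusted p = 0.00187). The mean of the 10 class II genes on the array per brain was 7.49, 8.02, 8.21, 7.72 and 7.62 in the BAL17 day 21 brains, against 6.49, 6.6, 6.53, 6.49 and 6.51 in the PBS brains.

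Phagocyte genes also rose. Lyz2, the lysozyme of macrophages and neutrophils, measured 8.41, 9.61, 9.03, 8.93 and 9.10 in the BAL17 day 21 brains, against 6.88, 7.99, 7.59, 7.37 and 7.39 in the PBS brains. The lowest implanted brain was above the highest PBS brain, and the difference was 1.57 ± 0.21. Cybb, a subunit of the phagocyte oxidase, rose by 1.99 ± 0.24, and the lysosomal marker Cd68 by 0.53 ± 0.15, but both were above the median in the cultured line. These were the only 3 of 19 macrophage genes on the array that passed the filter, and without it 11 were higher and 1 lower. The mean of the 19 lay between 6.03 and 6.22 in the BAL17 day 21 brains and between 5.55 and 5.70 in the PBS brains, and between 5.67 and 5.86 on the cultured BAL17 arrays. No neutrophil gene of 12 passed the filter, and without it 2 were higher. No T cell or cytotoxic gene of 17 passed it either, and without it 5 were higher and none lower. Their mean lay between 5.41 and 5.60 in the BAL17 day 21 brains and between 5.15 and 5.41 in the PBS brains, and between 5.68 and 5.80 on the cultured BAL17 arrays. Cd3e, a chain of the T cell receptor complex, measured 6.63, 6.35, 6.62, 6.78 and 6.41 in the BAL17 day 21 brains, against 6.13, 5.91, 6.31, 6.41 and 6.12 in the PBS brains, all close to or below the array median (0.38 ± 0.11 without the filter, adjusted p = 0.0183). The mean of the 19 B lineage genes on the array lay between 7.02 and 7.36 in the BAL17 day 21 brains and between 6.02 and 6.18 in the PBS brains, and its part in the MHC and phagocyte results was not tested.

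Of 12 genes of antigen presentation on MHC class I 10 were higher without the filter, with a median of 0.66, and 8 of 10 with it. Of those 10, 2 had been dim in every PBS brain, and 6 of the other 8 were higher. B2m, the light chain of every class I molecule, measured 11.58, 12.23, 12.01, 11.78 and 12.05 in the BAL17 day 21 brains, against 10.56, 10.80, 10.63, 10.36 and 10.55 in the PBS brains. The groups were separate by more than 0.7 log2 units (1.35 ± 0.12). Psmb8, of the immunoproteasome (1.54 ± 0.14), and Erap1, which trims peptides (1.36 ± 0.13), rose as well. All 10 tested class I genes were above the median on every cultured BAL17 array. Of 17 type I interferon response genes on the array 7 were higher without the filter, with a median of 0.31. With it 3 of 7 were higher (42.9%, against 11.4% of all genes tested). These were Ddx58, the RNA sensor (0.73 ± 0.11), Bst2, the tetherin gene (0.63 ± 0.10), and Rtp4 (0.92 ± 0.21). Ddx58 had been dim in every PBS brain, and 2 of the other 6 tested genes were higher. Ddx58 and Bst2 were above the median on every cultured BAL17 array, and Rtp4 was below it. For Rtp4 replicate 2 stood apart, at 8.31 where the other 4 implanted brains ran from 6.87 to 7.22. Of 12 interferon gamma response genes on the array 2 were tested, each above the median on every cultured BAL17 array. Of these, Cd274, which encodes PD-L1, rose by 1.79 ± 0.15. Cd274 had been dim in every PBS brain and passed the filter only through the implanted brains, and the other tested gene was not higher. Without the filter 6 of the 12 were higher, and the list mean per brain was 6.15, 6.97, 7.07, 6.75 and 6.37 in the BAL17 day 21 brains, against 5.99, 6.06, 5.87, 5.94 and 6.02 in the PBS brains. Replicates 1 and 5 of the implanted brains stood nearest to the PBS brains in that list.

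Genes of lymphoid chemokines and their receptors moved both ways, and adhesion genes were higher or not called. Cxcr4, the receptor that guides lymphocytes, measured 9.83, 9.70, 9.77, 9.50 and 10.13 in the BAL17 day 21 brains, against 6.69, 6.69, 7.0, 7.33 and 7.01 in the PBS brains, and rose by 2.84 ± 0.13. Its ligand gene Cxcl12 measured 7.02, 7.18, 7.05, 6.88 and 7.04 in the BAL17 day 21 brains, against 7.58, 7.69, 7.46, 7.52 and 7.57 in the PBS brains, and fell by 0.53 on the log2 scale. Receptor and ligand genes thus moved apart, with no overlap of the groups in either gene. Cxcr4 was above the median on every cultured BAL17 array and Cxcl12 below it on all 6. Which cells carried each change was not tested. Ccr7, another homing receptor of lymphocytes, rose by 0.96 ± 0.15. In the list of lymphoid chemokines and receptors 3 of 7 tested genes were higher (42.9%) and 2 lower (28.6%). Over all genes tested 11.4% were higher and 34% lower, so the lower share was below the common one. Without the filter 9 of 15 were higher and 3 lower. Of 14 adhesion genes on the array 5 were higher without the filter. With it 3 of 8 were higher (37.5%), among them the integrin gene Itga4 (0.97 ± 0.13) and Icam2 (0.44 ± 0.12). Il7r, the interleukin 7 receptor, and Ptpn22, a phosphatase of lymphocytes, rose by 2.20 ± 0.17 and 2.69 ± 0.22. Ptprc, which encodes the pan-leukocyte antigen CD45, rose by 2.75 ± 0.17. Il7r and Ptpn22 were dim in every PBS brain. Ccr7, Itga4, Icam2, Il7r, Ptpn22 and Ptprc were all above the median on every cultured BAL17 array.

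Microglia and astrocytes, which belong to the host brain, gave mixed signs. Of 10 tested genes of resting microglia 8 were lower (80%, against 34% of all genes tested) and none higher, with a median of -0.39. In 4 of them every implanted brain lay below every PBS brain, which held for 20.6% of all genes tested. P2ry13, a purine receptor of microglia, measured 7.52, 7.48, 7.58, 7.72 and 7.60 in the BAL17 day 21 brains, against 8.49, 8.57, 8.34, 8.19 and 8.39 in the PBS brains, and fell by 0.82 on the log2 scale. P2ry12 (-0.69 ± 0.16), the growth factor receptor gene Csf1r (-0.55 ± 0.13) and Cx3cr1 (-0.30 ± 0.10) were lower by less, and Cx3cr1 lost its call without BAL17 replicate 1, 3 or 5 or PBS replicate 1 or 2 (-0.28 to -0.26). The number of lower microglial genes was between 5 and 8 when single brains were left out. Of 17 complement and phagocytosis genes on the array 8 were higher without the filter. With it 4 of 7 were higher, without separation of the groups, among them C1qb (0.31 ± 0.10), Lgals3 (0.29 ± 0.09) and C3ar1 (0.31 ± 0.10). Lgals3 was above the median on every cultured BAL17 array, while C1qb and C3ar1 were below it. With arrays centred on their median none of the 7 was higher and 1 was lower, so these small rises depend on the scaling, and C3ar1 lost its call without BAL17 replicate 5 (0.26).

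Of 13 tested astrocyte genes 9 were lower and none higher, with a median of -0.45. Aqp4, the water channel of astrocyte endfeet, measured 8.48, 9.17, 8.63, 8.51 and 8.45 in the BAL17 day 21 brains, against 9.34, 9.81, 9.53, 9.64 and 9.79 in the PBS brains. Replicate 2 lay above the other 4 implanted brains and below the PBS brains, and the difference was -0.97 ± 0.14. The glutamate transporter gene Slc1a3 (-0.62 ± 0.09) and the bicarbonate transporter gene Slc4a4 (-0.45 ± 0.07) fell too. Etnppl and Agt, which in brain belong chiefly to astrocytes, went the other way. Agt was dim in every PBS brain, so it passed the filter only through the implanted brains. Without the filter it was called as well (limma, adjusted p = 0.00369). Etnppl, a phospholyase, measured 9.39, 9.72, 9.45, 9.10 and 9.32 in the BAL17 day 21 brains, against 8.36, 8.69, 8.51, 7.55 and 8.09 in the PBS brains, and rose by 1.15 ± 0.18, while Agt, the angiotensinogen gene, rose by 0.55 ± 0.12. In the list of reactive gliosis 6 of 18 genes on the array were higher and 1 lower without the filter. With it 4 of 7 were higher, none without overlap. Among them were the ferroxidase gene Cp (0.60 ± 0.15), Hspb1 (0.47 ± 0.12) and the filament gene Vim (0.42 ± 0.12). Cp, Hspb1 and Vim were above the median on every cultured BAL17 array, so their rises cannot be assigned to host cells. Gfap, the hallmark filament of reactive astrocytes, measured 7.03, 8.16, 7.59, 7.77 and 7.74 in the BAL17 day 21 brains, against 7.44, 8.23, 8.0, 7.83 and 8.09 in the PBS brains, and the groups overlapped (-0.26 ± 0.18, adjusted p = 0.262).

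Myelin genes fell together. Of 17 tested, 15 were lower and none higher, with a median of -0.57, and 7 did not overlap between the groups. Mag, a glycoprotein of the innermost myelin layer, measured 7.85, 8.14, 7.95, 7.61 and 7.73 in the BAL17 day 21 brains, against 8.69, 9.21, 8.55, 8.79 and 8.94 in the PBS brains. Mog, of the outer surface, and Mbp, a main protein of compact myelin, were lower as well (-0.67 ± 0.19 and -0.39 ± 0.11). Replicate 2 was the highest implanted brain in all 3 genes. Oligodendrocyte precursor genes were lower for 6 of 8, with the receptor phosphatase gene Ptprz1 at -0.71 ± 0.08, the receptor gene Gpr17 at -0.72 ± 0.10 and the matrix gene Tnr at -0.49 ± 0.09. Cultured BAL17 cells were below the median on all 6 arrays for 7 of these 8 genes. 

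Neuronal genes fell widely and by modest amounts. Lower genes numbered 14 of 16 for cytoskeleton and identity, 13 of 15 for the synaptic vesicle, 12 of 14 for glutamate receptors, 9 of 12 for the GABA system and 11 of 13 for ion channels, and none of these genes was higher. The medians ran from -0.56 for glutamate receptors to -0.40 for the GABA system, against -0.14 over all genes tested. Mapt, which encodes the microtubule protein tau, measured 7.79, 8.0, 7.93, 7.95 and 7.87 in the BAL17 day 21 brains, against 8.77, 8.69, 8.68, 8.81 and 8.77 in the PBS brains. Syn1, a synapsin of synaptic vesicles, measured 8.36, 8.30, 8.56, 8.67 and 8.63 in the BAL17 day 21 brains, against 9.31, 9.24, 9.15, 9.41 and 9.27 in the PBS brains. The groups were separate in both genes by more than 0.4 log2 units, and the differences were -0.84 ± 0.07 and -0.77 ± 0.09. The neuronal tubulin gene Tubb3 (-0.79 ± 0.10), the neuronal enolase gene Eno2 (-0.85 ± 0.10), the release site gene Rims1 (-0.70 ± 0.10) and the vesicle gene Sv2a (-0.58 ± 0.08) fell as well.

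Receptor and channel genes were lowered to a like degree. The metabotropic receptor gene Grm3 (-0.79 ± 0.09) fell, while the postsynaptic scaffold gene Dlg4 (-0.59 ± 0.07) and the AMPA receptor gene Gria1 (-0.56 ± 0.08) were lower too. Gabrb1 (-0.64 ± 0.09) and Gabra2 (-0.54 ± 0.09), both subunits of the GABA-A receptor, the calcium channel subunit gene Cacng3 (-0.85 ± 0.11) and the fast potassium channel gene Kcnc1 (-0.84 ± 0.12) were also lower. Snap25, a core protein of vesicle fusion, measured 12.94, 12.99, 12.92, 12.94 and 13 in the BAL17 day 21 brains, against 13.05, 13.05, 13.01, 13.02 and 13.08 in the PBS brains. Every implanted brain lay below every PBS brain, but the difference was small and did not pass the test (-0.08 ± 0.07, adjusted p = 0.33). Rbfox3, which encodes the neuronal nuclear antigen NeuN, was lower (-0.29 ± 0.08). Activity-dependent immediate early genes were lower for 7 of 8, with Egr2 at -1.02 ± 0.14, Arc at -0.93 ± 0.14 and Jun at -0.50 ± 0.08. Beside these falls the mean of the 19 B lineage genes was higher in each of the 5 implanted brains than in any PBS brain, and its part in the falls of brain genes was not tested.

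Genes of cortical and cerebellar neurons were mostly lower. Of 12 tested cortical genes 8 were lower, with a median of -0.58, and of 10 tested cerebellar genes all 10 were lower, with a median of -0.71. Neurod6, a transcription factor of cortical projection neurons, measured 7.09, 7.52, 7.63, 6.94 and 7.11 in the BAL17 day 21 brains, against 8.10, 8.58, 8.26, 8.54 and 8.38 in the PBS brains. Every implanted brain was below every PBS brain (-1.11 ± 0.14). Nrn1, a neurite growth factor of cortical neurons, was lower (-1.05 ± 0.14), as was Tbr1, a factor of deep cortical layers (-0.59 ± 0.09). Cbln1, which bridges the synapses of cerebellar granule cells, measured 9.03, 8.53, 9.43, 8.90 and 8.22 in the BAL17 day 21 brains, against 9.92, 9.31, 10.08, 10.25 and 9.85 in the PBS brains, and its groups overlapped in replicate 3 (-1.06 ± 0.21). Zic2, of granule cells, and Pvalb, of Purkinje cells and interneurons, were lower (-0.67 ± 0.13 and -0.68 ± 0.14).

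Striatal and choroid plexus genes gave another picture. None of 11 striatal genes and none of 9 choroid plexus and ependymal genes was called against PBS. The striatal list mean per brain was 8.52, 8.69, 8.49, 8.42 and 8.43 in the BAL17 day 21 brains, against 8.86, 9.13, 8.66, 7.91 and 8.64 in the PBS brains. PBS replicate 4 was the lowest of the 10 brains and PBS replicate 2 the highest. Without PBS replicate 4, 8 of the 11 striatal genes were lower, among them the dopamine receptor genes Drd1 at -0.50 and Drd2 at -0.51 and the signalling regulator gene Rgs9 at -0.42, so the absence of calls rests on that brain. The choroid plexus list mean per brain was 7.23, 7.41, 6.97, 7.34 and 7.38 in the BAL17 day 21 brains, against 6.95, 7.67, 7.28, 7.38 and 7.27 in the PBS brains. Ttr, the thyroid hormone carrier made by the choroid plexus, measured 12.88, 12.96, 12.74, 12.85 and 13.04 in the BAL17 day 21 brains, against 12.27, 12.94, 12.80, 12.92 and 12.78 in the PBS brains, and did not pass the test (0.15 ± 0.12, adjusted p = 0.308). Of 9 thalamic and midbrain genes 4 were lower (44.4%, against 34% of all genes tested). The PBS brains ran from 7.05 to 7.81 in the mean of that list where the implanted brains ran from 7.42 to 7.50.

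**Figure D5:**
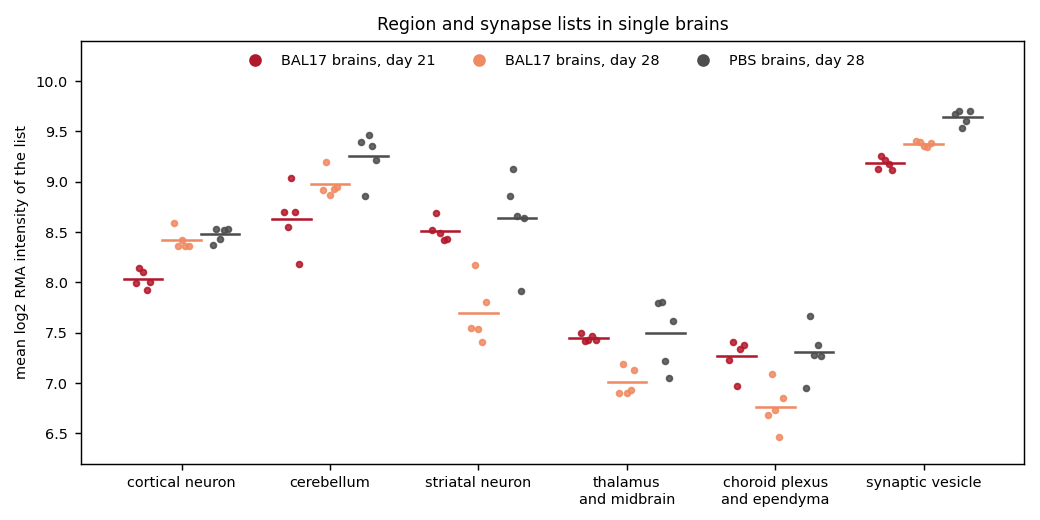
Mean log2 RMA intensity of 6 gene lists in single brains, with a bar at the group mean (5 BAL17 brains of day 21, 5 BAL17 brains of day 28 and 5 PBS brains of day 28, left to right in each list). Cortical means of day 21 lie below all others, while striatal and thalamic means of day 28 are the low ones and PBS brains spread widely in both lists.

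The BAL17 brains of day 28 give values a week later. Day 28 brains against the same 5 PBS brains gave 897 higher genes (8.94%) and 2763 lower genes (27.5%), with a median of -0.12, and the comparisons share their controls. Day 21 against day 28 gave 91 genes higher at day 21 (0.907%) and 255 lower (2.54%), 346 in all (3.45%). Without 1 brain the 346 became 203 (day 21 replicate 1), 179 (day 21 replicate 5), 170 (day 28 replicate 1) or 191 (day 28 replicate 3), and between 238 and 512 without any other. Of the 1148 genes that were higher at day 21 than in PBS brains, 50 (4.36%) were also higher than at day 28 and 1 (0.0871%) was lower. Of the 3413 lower genes, 251 (7.35%) were also lower than at day 28 and 1 (0.0293%) was higher. No gene of the B lineage, mitosis or DNA replication lists differed between the days, and the medians of these lists at day 28 were 1.88, 1.83 and 0.69 against PBS. Top2a differed from day 28 by 0.09 ± 0.16 (adjusted p = 0.85).

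Of the genes with the largest differences from PBS, Ctse, Myc and Casp4 were also higher at day 21 than at day 28. Ctse measured 9.43, 9.33, 9.37, 9.29 and 9.62 in the BAL17 day 21 brains and 8.52, 8.34, 8.60, 8.70 and 8.78 in the BAL17 day 28 brains, against 5.88, 5.64, 5.72, 5.67 and 5.75 in the PBS brains. The day 21 brains were all above the day 28 brains, which were all above the PBS brains (0.82 ± 0.09 between days, adjusted p = 0.000203). Myc (0.59 ± 0.15), Casp4 (0.55 ± 0.12), Ptpn22 (1.23 ± 0.22), Il7r (1.01 ± 0.17), Cxcr4 (0.69 ± 0.12), Bcl2l11 (0.50 ± 0.12) and Msh6 (0.33 ± 0.08) were higher at day 21 as well.

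Among genes called between the days without overlap, 5 of the 8 with the largest excess at day 21 were striatal. Between the days 9 of 11 striatal genes differed, all higher at day 21, while the median of the list at day 28 against PBS was -1.03. Tac1, the precursor of substance P, measured 8.77, 9.56, 9.05, 8.45 and 8.68 in the BAL17 day 21 brains and 7.52, 8.37, 7.20, 6.90 and 7.24 in the BAL17 day 28 brains, against 9.02, 9.46, 9.15, 7.79 and 8.64 in the PBS brains. The day 21 brains overlapped the PBS brains and lay above the day 28 brains (1.46 ± 0.29 between days). Rgs9 (1.29 ± 0.25), the enkephalin precursor gene Penk (1.09 ± 0.19), Drd2 (1.06 ± 0.25), Drd1 (1.03 ± 0.24) and the kinase gene Prkcd of the thalamic list (1.14 ± 0.18) followed, and Ptpn22 and Il7r made up the 8. Between 3 and 9 striatal genes differed when single BAL17 brains were left out. Choroid plexus genes were higher at day 21 than at day 28 for 4 of 9, between 1 and 5 on leaving out a brain, with a list mean of 6.46 to 7.09 in day 28 brains.

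Cortical genes ran opposite to striatal ones. Of 12 cortical genes 6 were lower at day 21 than at day 28, and the median of the list at day 28 against PBS was -0.07. Neurod6 (-1.10 ± 0.14), Tbr1 (-0.72 ± 0.09), the channel gene Kcnh7 (-0.79 ± 0.10), Mlip (-0.98 ± 0.12) and Vxn (-0.76 ± 0.14) were lower at day 21, and none of them was called at day 28 against PBS. Kcnh7 measured 8.18, 8.25, 8.33, 8.11 and 8.18 in the BAL17 day 21 brains and 9.18, 8.55, 9.11, 9.22 and 8.92 in the BAL17 day 28 brains, against 8.79, 8.89, 8.85, 8.87 and 8.90 in the PBS brains. The day 28 values ran to either side of the PBS values, and both lay above those of day 21. Fgf7 (-1.20 ± 0.28), the cerebellar phosphatase inhibitor gene Ppp1r17 (-1.01 ± 0.24) and the secretion gene Cadps2 (-0.69 ± 0.11) made up the 8 lower genes of largest difference among those called between the days without overlap. Mapt, Syn1, Rims1, Rbfox3, Dlg4, Grm3, Cacng3, Arc, Slc1a3, Cx3cr1, Tjp1, Ccnd1, Nrep, Abi3bp and Lxn were lower at day 21 too, with differences from -0.69 to -0.28. Which level of each brain the sections covered is not given, so regional sampling and time since implantation cannot be told apart.

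Vessels and coverings of the brain changed in part. Of 11 tested endothelial and blood-brain barrier genes 6 were lower (54.5%) and 2 higher (18.2%), where 34% and 11.4% of all genes tested were. Tek, the angiopoietin receptor of endothelium, measured 6.59, 6.48, 6.67, 6.31 and 6.26 in the BAL17 day 21 brains, against 7.37, 7.65, 7.13, 7.37 and 7.64 in the PBS brains, and fell by 0.97 on the log2 scale without overlap. The drug transporter gene Abcb1a (-0.68 ± 0.08) and the tight junction gene Tjp1 (-0.65 ± 0.08) fell too, while the tight junction gene Cldn5 did not pass the test (-0.02 ± 0.07). Cldn5 had means of 6.81 in the BAL17 day 21 brains, 6.82 in the PBS brains and 6.73 on the cultured BAL17 arrays. The brain values were close to the array median, so little can be said of a change in this gene. Pericyte and smooth muscle genes were lower for 4 of 5, with Rgs5 at -0.77 ± 0.11, Acta2 at -0.60 ± 0.14 and Pdgfrb at -0.29 ± 0.08. Of 12 meningeal genes 1 was lower (8.33%, below the 34% over all genes tested), Lama2 (-0.30 ± 0.08). Prl, the prolactin gene of the pituitary, was outside the filter and measured 5.19, 5.07, 5.63, 5.21 and 5.39 in the BAL17 day 21 brains, against 9.20, 8.86, 10.46, 6.03 and 5.79 in the PBS brains, so the PBS brains were split among themselves. Of 2 tested pituitary genes 1 was lower, the granin gene Chga (-0.36 ± 0.13), whose call was lost without BAL17 replicate 3, 4 or 5 or PBS replicate 2 or 5 (-0.35 to -0.29). Of 4 tested hypothalamic neuropeptide genes 2 were lower (50%, against 34% of all genes tested), Npy (-0.47 ± 0.11) and Sst (-0.33 ± 0.13). Leaving out any brain other than BAL17 replicate 2 and PBS replicates 3 and 4 ended the call of Sst (-0.35 to -0.23).

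Glycolysis and sterol synthesis genes were mostly lower. Glycolysis genes were lower for 8 and higher for 2 of 14 (57.1% and 14.3%, where 34% and 11.4% of all genes tested were). Among the higher was the lactate exporter gene Slc16a3 (0.55 ± 0.11). Hypoxia genes were higher for 4 and lower for 5 of 13 (30.8% and 38.5%, where 11.4% and 34% of all genes tested were), with Ero1a at 0.61 ± 0.10 and the angiogenic factor gene Vegfa at -0.42 ± 0.09, and the higher count fell to 1 with arrays centred on their median. Sterol synthesis genes were lower for 7 of 11, among them Hmgcs1 (-0.86 ± 0.12), and all 11 were above the median in the cultured line. Oxidative phosphorylation genes were lower for 2 of 18 (11.1%, below the 34% over all genes tested), namely Ndufa1 (-0.52 ± 0.16) and Cox7a2 (-0.33 ± 0.12). Cox7a2 lost its call without any of 6 brains (-0.34 to -0.25) and Ndufa1 without BAL17 replicate 1 (-0.44). The number of lower genes in that list was between 0 and 11 on leaving out single brains and 9 after quantile normalization. Of 15 stress and chaperone genes 2 were higher (13.3%), among them Herpud1 (0.55 ± 0.10), and 3 lower (20%), among them Hsph1 (-0.57 ± 0.10), shares near or below those over all genes tested. Of 5 tested histone genes 2 were higher, H4c4, a core histone of replication (0.42 ± 0.16), and H2az1, a variant made outside it (0.33 ± 0.08), which lost its call after quantile normalization. H4c4 lost its call without BAL17 replicate 5 or any 1 PBS brain (0.37 to 0.45). H2bc4 was the only lower histone gene (20%, against 34% of all genes tested).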

How the data were processed

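RNA of frozen sections of whole brains was biotin-labelled and hybridised to Affymetrix mouse gene arrays. Per the submitters' processing notes the authors computed RMA in Affymetrix Expression Console. The deposited values are linear intensities from 2.72 to 17825 over all 32 arrays of the series, and their log2 was taken here. RMA pulls low intensities together, which shrinks the differences of dim genes. Probe sets were named through the platform annotation. Of 35556, 1621 carried several symbols and 12146 none, and both were left out, also where they are control spots. Where a gene had several probe sets, the one of highest mean in these 10 arrays stood for it. Groups came from the sample titles.

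Group means were fitted over 10 arrays with limma 3.58.1 (R 4.3.3) with empirical Bayes variances, and days were compared in a fit of 15 arrays that adds the BAL17 brains of day 28. P-values measure the spread between these brains, and 5 arrays a group limit their precision. Samples of equal number were not shown to be paired. The fit was tested on simulated data. Alternatives were the filter, the normalization, the choice of probe set, all 20 brain arrays in 1 fit, the replicate number as a block and each brain left out.

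The comparison and the gene lists were chosen with earlier results of these data known. Named genes were the 12 largest rises and 12 largest falls among called genes without overlap, up to 3 called genes of smallest adjusted p per list, the genes without overlap that were dim in the line, the 8 largest differences between days in each direction among genes called without overlap, and a fixed set of defining markers.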

Additional observations from a re-analysis of the deposited data

Results flagged for a closer look

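Single brains far from the other 4 of their group were looked for in 414 groups of 5 values, and 28 were found, where chance alone gives about 1 in 20. Replicate 2 of the BAL17 day 21 brains stood high in Fabp7 (8.84, others 7.20 to 7.60), Cryab (9.23, others 8.06 to 8.36), Bcas1 (7.83, others 7.16 to 7.33), Aqp4 (9.17, others 8.45 to 8.63), Tubb3 (10.32, others 9.92 to 9.97), Drd2 (9.18), Sst (10.27) and Rtp4 (8.31, others 6.87 to 7.22). In Fabp7, Cryab, Bcas1, Aqp4 and Tubb3 this brain lay nearer to the PBS brains than the other 4 did. Replicate 3 of day 21 stood high in the germinal centre list mean (7.51, others 6.92 to 7.05) and in Edem1 (7.96) and low in Ddx58 (6.78). Replicate 5 of day 21 stood high in Bcl2l11 (7.68) and in the DNA repair list mean (7.14).

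Among the PBS brains, replicate 1 stood high in Abi3bp (8.22) and low in Lcat (8.76) and Ttr (12.27). Replicate 2 stood high in Herpud1 (8.37) and in the germinal centre (6.68), G1 regulator (6.96) and microglial (7.16) list means, and low in Ppp1r17 (7.77). Replicate 3 stood high in Mcm3 (6.34) and low in Bcl2l11 (5.59) and Tjp1 (9.74). Replicate 4 stood high in Lgals3 (7.51) and low in Bcl2 (7.54) and Penk (10.96, others 11.82 to 12.03), and replicate 5 was low in the immediate early gene list mean (7.05).

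The difference from PBS was not the same at both days for 38 named genes, by the limma test of day 21 minus day 28 with p-values adjusted over the 10033 genes. Higher at day 21 were Tac1 (1.46), Rgs9 (1.29), Ptpn22 (1.23), Prkcd (1.14), Penk (1.09), Drd2 (1.06), Drd1 (1.03), Il7r (1.01), Ctse (0.82), Cxcr4 (0.69), Myc (0.59), Casp4 (0.55), Cp (0.54), Bcl2l11 (0.50) and Msh6 (0.33). Lower at day 21 were Fgf7 (-1.20), Neurod6 (-1.10), Ppp1r17 (-1.01), Mlip (-0.98), Kcnh7 (-0.79), Vxn (-0.76), Tbr1 (-0.72), Cadps2 (-0.69) and Nrep (-0.69). Smaller falls were those of Abi3bp (-0.64), Arc (-0.62), Lxn (-0.59), Cacng3 (-0.50), Rims1 (-0.44), Grm3 (-0.40), Cx3cr1 (-0.39), Syn1 (-0.39), Mapt (-0.38), Tjp1 (-0.35), Ccnd1 (-0.33), Slc1a3 (-0.33), Dlg4 (-0.32) and Rbfox3 (-0.28).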

How the results depend on the processing

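The number of higher genes was 1148 with the filter at the array median, 526 with it at the 75th percentile and 1899 with none, and the number of lower genes was 3413, 1949 and 3419. These filters change the genes tested. All other settings kept both numbers within 1.5 times, with 849 higher after median centring, 1392 after quantile normalization, 987 to 1208 when single brains were left out, and 2846 to 4103 lower when single brains were left out. The number of genes that differed between day 21 and day 28 was 346, 192 with all 20 brain arrays in 1 fit and 170 to 512 when single BAL17 brains were left out. For these day counts the cause was not tested. Of the higher genes, 23 were below the array median and 180 below the 75th percentile in the cultured line. Samples of equal number were not shown to be paired, since the correlations of their deviations in day 21 and PBS brains ran from -0.084 to 0.575 and the highest was with the own number for 2 of 5 numbers. With the replicate number as a block, 1403 genes were higher, 4194 lower and 476 different between days. Calls of named genes that were lost under another scaling were those of C1qb (0.24), C3ar1 (0.24), Lgals3 (0.22) and H4c4 (0.35) after median centring and of H2az1 (0.15) and Chga (-0.28) after quantile normalization. RMA gives no detection call, so the low end of the intensities limits what can be said of genes such as those of T cells.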
